A study of Mus musculus with 15 samples.

Results

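RNA polymerase I (Pol I) transcribes the ribosomal RNA genes in the nucleolus, and a large set of nucleolar proteins cuts, modifies and folds the transcript into the subunits of the ribosome. Rrn3 (TIF-IA) carries growth signals to Pol I, Ubtf opens the ribosomal DNA, and Taf1a to Taf1d form the selectivity factor SL1 that marks its promoter. The transcription factor Myc, with its partner Max, drives many genes of the pathway in growing cells, and in muscle the making of ribosomes sets how much protein the tissue can build. Doxorubicin, a chemotherapy drug that damages DNA, is known to block rRNA synthesis by Pol I. The transcripts of 50 genes of this pathway were followed here, of 19057 genes that the array annotation names. They were 11 genes of the Pol I machinery, 3 of Myc and its partner, and 36 of the nucleolar processing factors. The genes were listed by name, and each was read by its brightest probe.

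RNA of tibialis anterior muscle came from male mice of the strain C57BL/6 by the labels (C57BL/6J by the study's methods), aged 8 to 10 weeks by the labels, with 1 array per mouse and 5 arrays for each of 3 groups. Ctrl mice were given PBS. Dox mice were given a single dose of 15 mg/kg doxorubicin 20 hours before the muscle was taken. Dox + sACVR2B mice had this dose too, preceded by 48 hours with sACVR2B-Fc at 10 mg/kg, the soluble form of activin receptor IIB, which traps myostatin and activins. The comparisons ask what doxorubicin does to these transcripts and whether trapping these ligands changes it. No group was given sACVR2B-Fc alone, so its own effect and a change in that of doxorubicin cannot be told apart. Levels are given as log2(signal + 50) of the deposited normalized signals, a scale that understates the fold of dim probes, and levels of different genes are not set against each other.

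Cdkn1a, the p53-induced cell cycle inhibitor p21, did not follow the labels. Its signal was 4301, 294.5, 187.3, 4057 and 4634 in the libraries labelled Ctrl 1 to Ctrl 5. It was 2359, 131.6, 4013, 3316 and 2694 in those labelled Dox 1 to Dox 5, and 4560, 4047, 3623, 209.1 and 358.8 in those labelled Dox + sACVR2B 1 to 5. In all, 10 arrays had a signal of 1000 or more and 5 had less, and nothing lay between 358.8 and 2359. On this gene 6 libraries went against their label, namely Ctrl 1, Ctrl 4 and Ctrl 5 with high and Dox 2, Dox + sACVR2B 4 and Dox + sACVR2B 5 with low signal. The p53 targets Mdm2, Ccng1, Fas and Gtse1 were also higher in the same 10 arrays without overlap, beside 2.39% of all genes. Their differences of medians were 0.96, 0.44, 1.68 and 3.54 on the log2 scale. Whether labels were exchanged was not tested, and a sample is named throughout as the library that carries a label. Results by label are also given without those 6 libraries. The 10 and the 5 arrays are described side by side with no test, since a measured value and not the design sets them apart. All 9 muscle markers looked for, among them Acta1, Ckm and Myh4, were measured, with a summed signal of 175618 to 211857 per array.

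The 250 bases upstream of the start site are shown for Rrn3, which had the smallest p by label, for Heatr1, whose levels did not overlap between the arrays high and low in Cdkn1a, and for Nop58, which had the highest log2 fold change by label. The sequences are RefSeq's on GRCm38.p6, 5′ to 3′ on the gene's strand. They lie at chr16:13780449-13780698 (plus strand) for Rrn3, chr13:12395125-12395374 (plus strand) for Heatr1 and chr1:59684756-59685005 (plus strand) for Nop58. Capitals mark the E-box CACGTG, which Myc and Max bind, its variant CACGCG, or the ETS motif CCGGAAGT, each looked for on both strands.
Rrn3: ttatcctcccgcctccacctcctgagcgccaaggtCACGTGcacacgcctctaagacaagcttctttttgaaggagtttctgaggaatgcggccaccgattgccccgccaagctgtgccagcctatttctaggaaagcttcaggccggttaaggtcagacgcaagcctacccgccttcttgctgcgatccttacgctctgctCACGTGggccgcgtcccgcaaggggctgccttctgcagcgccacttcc
Heatr1: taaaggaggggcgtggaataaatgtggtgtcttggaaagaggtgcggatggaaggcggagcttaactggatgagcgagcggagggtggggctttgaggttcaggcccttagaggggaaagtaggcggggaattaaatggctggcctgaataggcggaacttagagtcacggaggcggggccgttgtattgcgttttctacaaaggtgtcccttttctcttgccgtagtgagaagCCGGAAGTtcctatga
Nop58: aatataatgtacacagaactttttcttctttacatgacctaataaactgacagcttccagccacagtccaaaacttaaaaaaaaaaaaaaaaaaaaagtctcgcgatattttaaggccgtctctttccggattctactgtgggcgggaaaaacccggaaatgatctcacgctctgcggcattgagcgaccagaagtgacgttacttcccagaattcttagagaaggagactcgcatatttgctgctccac
The Rrn3 window held the E-box at -215 and at -48 from the start site, the Heatr1 window an ETS motif at -16, and the Nop58 window none of the 3 motifs. Windows were found for 42 of the 50 members, 4 of which have several, and no window was at hand for Myc, Fbl, Npm1, Tcof1, Rrp12, Bop1, Rrs1 and Gnl2. The E-box was in 5.88% of the 51 member windows and in 6.02% of all 32851 windows of the same length. The variant was in 13.7% of the member windows and 7.62% of all. The ETS motif was in 15.7% of the member windows and 2.88% of all, in Emg1, Gar1, Heatr1, Nhp2, Polr1c, Taf1a and Taf1c. A match describes these letters only and shows no binding.

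Of the 50 members, 38 had a probe above noise (a signal over 12.4) in at least 5 arrays. A further 10 members had a probe that did not reach it, and Fbl (fibrillarin) and Npm3 had no probe in the annotation. Myc was among those below noise, and its brightest probe had signals of -1.1, -6.8, -4.2, 4.2 and -2.4 in the libraries labelled Ctrl 1 to Ctrl 5. The signals were 12.2, 1.9, -5.3, -6.4 and 0.9 in those labelled Dox 1 to Dox 5, and -1.5, -1.0, 7.7, 4.3 and 8.0 in those labelled Dox + sACVR2B 1 to 5. No array was above noise, on either side of the Cdkn1a gap, so a difference in Myc was not detectable on these arrays. Max had signals of 18.6, 0.1, 9.4, -4.2 and -0.8 in the libraries labelled Ctrl, 7.2, 3.6, 10.2, -2.9 and 2.1 in those labelled Dox, and -0.1, -0.3, 11.2, 2.8 and -1.6 in those labelled Dox + sACVR2B. Only Ctrl 1 was above noise for Max, and only Dox 1, at 14.6, for Mycn. Taf1b, Taf1c, Dkc1, Utp20, Bysl, Wdr12 and Nop16 had no array above noise.

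Among the 9 measured genes of the Pol I machinery, Rrn3 stood highest in the libraries labelled as given doxorubicin. Log2 levels were 8.64, 8.35, 8.73, 8.72 and 8.59 in the libraries labelled Ctrl 1 to Ctrl 5, 9.09, 8.97, 8.74, 9.14 and 9.42 in those labelled Dox, and 8.75, 8.93, 8.89, 8.74 and 9.01 in those labelled Dox + sACVR2B. All 10 libraries labelled as given doxorubicin lay above all 5 labelled Ctrl, by a narrow margin (lowest 8.74 against highest 8.73). Of the libraries labelled as given doxorubicin but low in Cdkn1a, Dox 2 had 8.97 and Dox + sACVR2B 5 had 9.01. Dox + sACVR2B 4 had 8.74, barely above the highest library labelled Ctrl. The log2 fold change of Dox over Ctrl was 0.47 (standard error, SE, 0.11, 1.38-fold with a 95% interval of 1.17 to 1.63), and limma's p, adjusted over all kept probes, was 0.301, so it was not called. Of all 11458 genes, 0.105% lay wholly higher and 0.148% wholly lower in those 10 libraries. Rrn3 and the snoRNP gene Nop56 were the 2 members that did so. Between the arrays of 1000 or more and the rest in Cdkn1a, the medians of Rrn3 were 8.82 and 8.74 and the ranges overlapped.

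Ubtf, the upstream binding factor that keeps ribosomal DNA open, had the most negative difference of all members between the Cdkn1a sides. Log2 levels were 8.32, 8.65, 8.65, 8.18 and 8.27 in the libraries labelled Ctrl 1 to Ctrl 5, 8.10, 8.51, 8.10, 8.12 and 8.08 in those labelled Dox, and 8.34, 8.36, 8.35, 8.36 and 8.63 in those labelled Dox + sACVR2B. The 10 arrays of 1000 or more lay at 8.08 to 8.36 and the 5 others at 8.36 to 8.65, a difference of medians of -0.41. The sides crossed only between the libraries labelled Dox + sACVR2B 2 (high, 8.36) and Dox + sACVR2B 4 (low, 8.36). Another Ubtf probe ran the same way, with medians of 7.69 and 8.03. By label, the log2 fold change was -0.23 for Dox over Ctrl (SE 0.11, limma adjusted p = 0.511) and 0.23 for Dox + sACVR2B over Dox (SE 0.11, limma adjusted p = 0.996). Without the 6 libraries against their label, the first became -0.55, a comparison in which label and Cdkn1a side coincide and which is given with no test, and that of Dox + sACVR2B over Dox became 0.25 (limma adjusted p = 0.903).

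Polr1b, a core catalytic subunit of Pol I, ran the other way. Log2 levels were 8.12, 7.87, 7.88, 8.02 and 8.41 in the libraries labelled Ctrl, 8.32, 7.92, 8.56, 8.13 and 8.23 in those labelled Dox, and 8.13, 8.35, 8.34, 8.08 and 7.99 in those labelled Dox + sACVR2B. Within each label the arrays of 1000 or more in Cdkn1a lay above the others, and the medians over all labels were 8.27 and 7.92. Polr1d, a subunit shared with RNA polymerase III, had 12.25, 11.89, 11.99, 12.21 and 12.26 in the libraries labelled Ctrl, 12.09, 12.04, 12.46, 12.50 and 12.12 in those labelled Dox, and 12.33, 12.11, 12.21, 12.01 and 12.19 in those labelled Dox + sACVR2B. Its medians were 12.23 and 12.01, with 1 of the low arrays, Dox + sACVR2B 5, inside the range of the high ones.

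Polr1a, the largest subunit of Pol I, depended on the probe. Its brightest probe gave log2 levels of 10.57, 11.00, 10.87, 10.69 and 10.49 in the libraries labelled Ctrl, 10.95, 10.89, 10.43, 10.36 and 10.75 in those labelled Dox, and 10.34, 10.59, 10.85, 10.91 and 10.82 in those labelled Dox + sACVR2B. The high side had a median of 10.58 and the low side of 10.89, a difference of -0.31. The other 3 probes gave differences of 0.46, 0.25 and -0.24, so no direction is given for Polr1a.

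The remaining subunits and SL1 parts overlapped between the sides and between the labels. Polr1c, also shared with RNA polymerase III, had 8.69, 8.82, 8.70, 9.31 and 8.90 in the libraries labelled Ctrl, 8.77, 8.86, 8.69, 9.03 and 8.55 in those labelled Dox, and 8.56, 8.81, 8.45, 8.78 and 8.66 in those labelled Dox + sACVR2B. Polr1e, a subunit that helps initiation and elongation, had 7.19, 7.07, 7.41, 7.73 and 7.11, then 7.67, 7.37, 7.52, 7.73 and 7.56, then 7.36, 7.29, 7.51, 7.46 and 7.47 in the same order of labels. Its log2 fold change of Dox over Ctrl was 0.27 (SE 0.12, limma adjusted p = 0.463). Taf1a had 8.17, 8.22, 8.24, 8.44 and 8.32, then 8.31, 8.17, 8.20, 8.27 and 8.20, then 8.24, 8.33, 8.53, 8.49 and 8.27. Taf1d had 7.19, 6.98, 6.98, 7.05 and 7.33, then 7.17, 7.22, 7.22, 7.06 and 7.19, then 7.13, 6.96, 7.30, 6.98 and 6.97. Neither SL1 gene had an unadjusted p under 0.05 in any comparison by label.

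**Figure D1:**
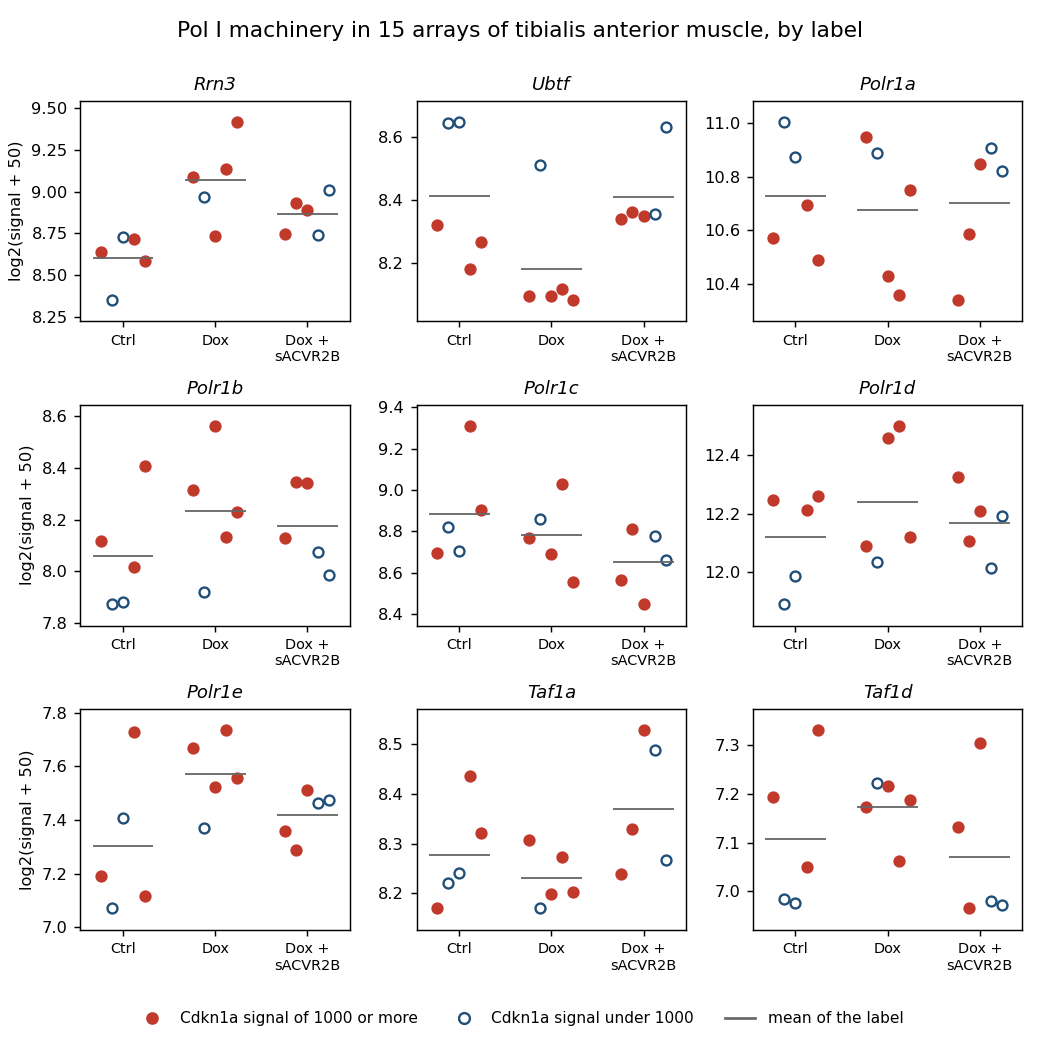
Log2(signal + 50) of the 9 measured Pol I machinery genes in each of 15 arrays (y axis, scaled per gene) by label (x axis), filled points for a Cdkn1a signal of 1000 or more, open points for less, lines for the mean of a label. Rrn3 is higher in every library labelled Dox or Dox + sACVR2B than in any labelled Ctrl, while the medians of filled and open points differ in opposite directions for Ubtf and Polr1b.

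By label, no measured member was called in any of the 3 comparisons, and no gene of the 11458 was either (0.0% called at an adjusted p under 0.05 in each, limma). At an unadjusted p under 0.05, 7 members were higher and 0 lower for Dox over Ctrl, beside 4.69% of all genes higher and 6.09% lower. The count was 4 without Ctrl 2, without Dox 4 or without Dox 5, and without Ctrl 4, Ctrl 5 or Dox 2 it held 1 member that was lower. Between Dox + sACVR2B and Dox, 0 of the 38 reached it, beside 2.3% and 2.05% of all genes. Between Dox + sACVR2B and Ctrl, 4 were higher and 1 lower, beside 4.63% and 4.38%, and these 5 became 2 without Ctrl 5 and 3 without Dox + sACVR2B 3, 4 or 5. On the log2(signal + 50) scale with all 15 arrays, the 38 members stayed within 1.5-fold in each comparison. Their log2 fold changes ran from -0.23 to 0.47 for Dox over Ctrl, from -0.21 to 0.23 for Dox + sACVR2B over Dox and from -0.30 to 0.55 for Dox + sACVR2B over Ctrl. The medians were 0.06, -0.02 and 0.06, where those of all genes lay within 0.01 of 0. The comparisons share libraries and are not independent of each other.

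The 7 members were Rrn3 and Polr1e of the Pol I machinery, the snoRNP genes Nop56, Nop58 and Nhp2, and Pes1 and Ebna1bp2 of the large subunit. Nop56, which holds the box C/D snoRNAs that guide methylation of rRNA, had log2 levels of 7.52, 7.55, 7.50, 7.41 and 7.45 in the libraries labelled Ctrl, 8.02, 7.62, 7.94, 7.58 and 8.02 in those labelled Dox, and 7.77, 7.71, 8.15, 7.86 and 7.90 in those labelled Dox + sACVR2B. All 10 lay above the 5 labelled Ctrl, whose SD was 0.06. Its log2 fold change was 0.35 for Dox over Ctrl (SE 0.11, limma adjusted p = 0.343) and 0.39 for Dox + sACVR2B over Ctrl (SE 0.11, limma adjusted p = 0.440). The high and low sides in Cdkn1a overlapped, with medians of 7.74 and 7.62.

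Nop58, the partner of Nop56 in the box C/D particles, had 9.38, 9.08, 8.79, 8.72 and 9.29 in the libraries labelled Ctrl, 9.66, 8.87, 9.56, 9.40 and 9.70 in those labelled Dox, and 9.42, 9.60, 9.94, 9.60 and 9.48 in those labelled Dox + sACVR2B. Dox 2 was the only library labelled as given doxorubicin inside the range of Ctrl. The log2 fold change was 0.39 for Dox over Ctrl (SE 0.16, limma adjusted p = 0.450) and 0.55 for Dox + sACVR2B over Ctrl (SE 0.16, 1.47-fold with a 95% interval of 1.16 to 1.86, limma adjusted p = 0.453), the latter from 0.47 to 0.64 as each array was left out. Pes1, which with Bop1 and Wdr12 forms the PeBoW complex of the large subunit, had 7.52, 7.55, 7.46, 7.77 and 7.36, then 7.91, 8.03, 7.50, 7.92 and 8.24, then 7.75, 7.65, 7.77, 8.22 and 7.92. Here the 3 libraries labelled as given doxorubicin but low in Cdkn1a were among the highest of their labels, and the log2 fold change of Dox over Ctrl was 0.39 (SE 0.13, limma adjusted p = 0.358). Nhp2, of the box H/ACA particles that guide pseudouridylation, had 0.27 and Ebna1bp2, of the large subunit, had 0.23 (adjusted p = 0.434 and 0.482 by limma).

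For Dox + sACVR2B over Dox the smallest p-values belonged to Ubtf, Rrn3 and Bop1. Rrn3 had a log2 fold change of -0.21 (95% interval of the fold 0.733 to 1.03), which became -0.12 without Dox 5. Bop1 had 8.60, 8.45, 9.03, 9.07 and 8.78 in the libraries labelled Ctrl, 9.02, 8.98, 8.84, 9.12 and 9.01 in those labelled Dox, and 8.85, 8.59, 8.90, 8.73 and 8.92 in those labelled Dox + sACVR2B. Its log2 fold change was -0.20 (SE 0.12, limma adjusted p = 0.996), and -0.07 with the median over its probes. Nop14, of the small subunit processome, was the 1 member with an unadjusted p under 0.05 that was lower in Dox + sACVR2B than in Ctrl, with a log2 fold change of -0.30 (SE 0.14, limma adjusted p = 0.554) that became -0.18 without Ctrl 4.

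**Figure D2:**
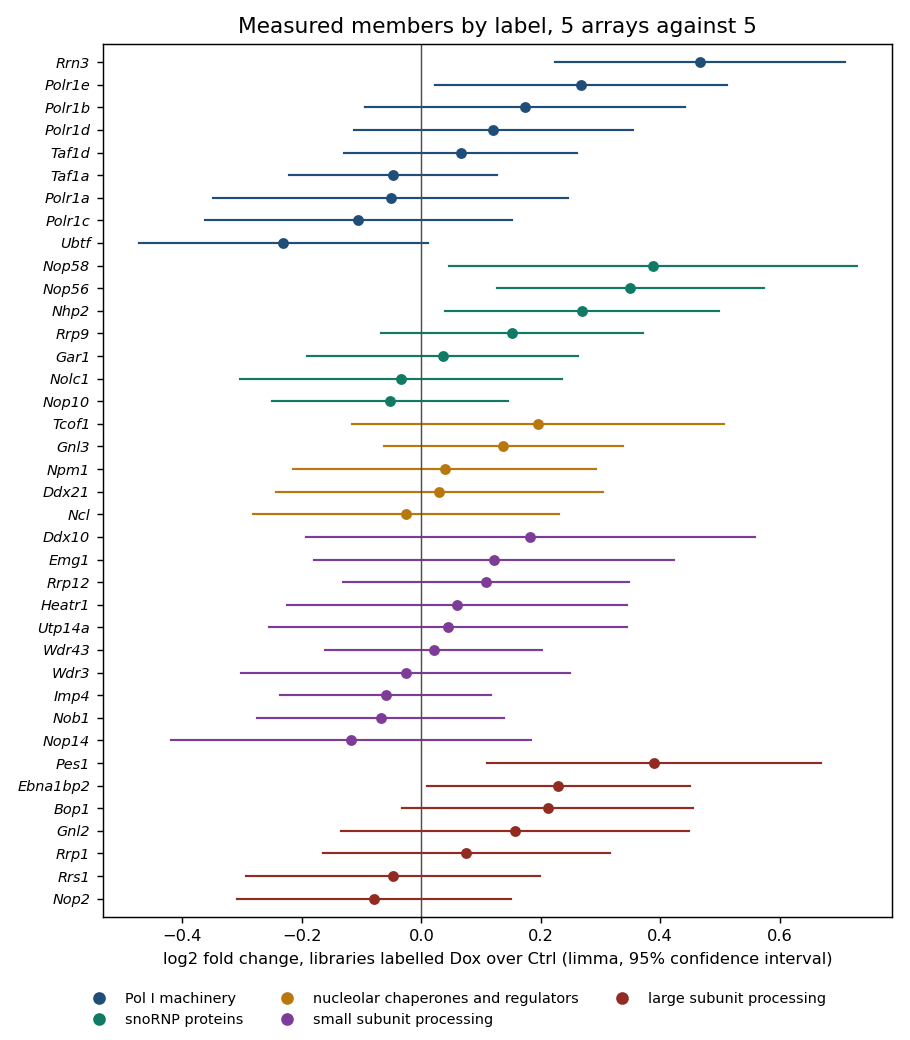
Log2 fold change of the libraries labelled Dox (5 arrays) over Ctrl (5 arrays) on the x axis for the 38 measured members (rows, coloured by role), points for the limma estimate and lines for its 95% confidence interval. The interval lies wholly above 0 for 7 members, Rrn3 with the highest estimate at 0.47, and for none does it lie wholly below.

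Without the 6 libraries against their label, 2 libraries labelled Ctrl, 4 labelled Dox and 3 labelled Dox + sACVR2B were left. Label and Cdkn1a side then coincide, both Ctrl libraries being low and the other 7 high, so that a comparison with Ctrl is a comparison of the Cdkn1a sides and its values are given as a description. The fit by limma passed an adjusted p of 0.05 for 3 of 38 members for Dox over Ctrl, beside 9.32% of all genes (4.41% higher and 4.91% lower), and for 2 of 38 for Dox + sACVR2B over Ctrl, beside 5.44% (2.81% higher and 2.63% lower). The Cdkn1a values chose these libraries, so nothing is read from those counts. For Dox over Ctrl the log2 fold change was -0.55 for Ubtf, 0.64 for Nop58 and 0.56 for Rrn3. It was 0.38 for Polr1e, 0.37 for Nop56, 0.39 for Pes1, 0.40 for Nhp2 and 0.29 for Ebna1bp2. For Dox + sACVR2B over Ctrl it was 0.71 for Nop58, 0.35 for Nop56, 0.32 for Rrn3, 0.22 for Pes1 and 0.020 for Nop14. Heatr1 had 0.41 and 0.52 in these comparisons, where with all 15 arrays it had 0.06 (SE 0.13, limma adjusted p = 0.908) and 0.07 (limma adjusted p = 0.903). Among the 10 arrays of 1000 or more alone, Heatr1 had -0.06 for Dox over Ctrl and 0.05 for Dox + sACVR2B over Ctrl. For Dox + sACVR2B over Dox, where all libraries left are high in Cdkn1a, Rrn3 had -0.24 and Bop1 -0.22. For Dox + sACVR2B over Dox none was called, of members or of all genes (0.0%). Among the 10 arrays of 1000 or more alone, 0 members and 0.0% of all genes were called in each comparison.

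Set side by side by Cdkn1a, the processing factors lay mostly higher in the 10 arrays of 1000 or more. Among these factors, 23 of 29 measured (79.3%) had a higher median there, with a median difference of 0.18. Of the 38 measured members, 29 (76.3%) had a higher median there, beside 49.5% of all genes. The median difference over members was 0.15, beside -0.00 over all genes. By role these were 6 of 7 measured snoRNP genes, 5 of 5 nucleolar chaperones and regulators, 8 of 10 small subunit factors, 4 of 7 large subunit factors and 6 of 9 Pol I machinery genes. The 2 sides did not overlap at all for Heatr1, Gnl2 and Npm1, all higher, and for no member lower. Over all genes 2.39% lay wholly higher and 1.89% wholly lower, and a count of 3 among 38 allows no statement on the members as a whole.

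Heatr1, a small subunit processome protein that is also needed for transcription by Pol I, had 10.53, 10.10, 10.15, 10.50 and 10.76 in the libraries labelled Ctrl, 10.59, 10.19, 10.54, 10.53 and 10.50 in those labelled Dox, and 10.59, 10.70, 10.65, 10.26 and 10.22 in those labelled Dox + sACVR2B. The high side lay at 10.50 to 10.76 and the low side at 10.10 to 10.26, a gap that opened within every label, and the other Heatr1 probe differed by 0.51. Gnl2, a GTPase of the large subunit precursor, had 8.89, 8.58, 8.83, 8.92 and 9.18, then 9.15, 8.68, 9.32, 9.10 and 8.94, then 9.07, 9.14, 9.31, 8.78 and 8.74. Its medians were 9.12 and 8.74, but another Gnl2 probe differed by -0.27, so the direction rests on the probe. Npm1 (nucleophosmin), a chaperone of nucleolar assembly, lay at 12.18 to 12.44 on the high side and 11.87 to 12.17 on the low side, with medians of 12.35 and 12.01. Near-identical copies of Npm1 exist in the genome, and the probe used may read them. Its other probe did not pass the noise filter, so no further probe bears on this difference.

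Ddx10, an RNA helicase of the small subunit, had the most positive difference of all members between the Cdkn1a sides. Its levels were 6.99, 6.46, 6.22, 6.73 and 6.88 in the libraries labelled Ctrl, 7.17, 6.38, 7.09, 6.63 and 6.93 in those labelled Dox, and 7.11, 7.21, 6.72, 6.64 and 6.52 in those labelled Dox + sACVR2B. The medians were 6.96 and 6.46, and another probe differed by 0.39. Wdr3, also of the small subunit processome, had 6.79, 6.18, 6.17, 6.76 and 6.69, then 6.33, 6.41, 6.60, 6.60 and 6.53, then 6.65, 6.55, 6.50, 6.40 and 6.21. Its medians were 6.60 and 6.21, while another probe differed by 0.00. Nop58, given above, had medians of 9.49 and 9.08. Within every label the arrays of 1000 or more lay above the others for 5 members, Polr1b, Npm1, Heatr1, Ddx10 and Gnl2, beside 4.99% of all genes. They lay below in every label for none, beside 4.44%.

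The processing members lower on the high side differed less. Nop2, a methyltransferase of large subunit rRNA, had 8.00, 8.32, 8.22, 8.22 and 8.15 in the libraries labelled Ctrl, 8.13, 8.23, 7.99, 7.90 and 8.26 in those labelled Dox, and 8.00, 8.06, 8.28, 8.54 and 8.31 in those labelled Dox + sACVR2B. Its medians were 8.10 and 8.31, while the other probes differed by 0.07 and 0.17. Pes1 had a difference of medians of -0.16. Rrp12, which takes part in export of the small subunit in yeast, had 10.23, 10.50, 10.44, 10.44 and 10.32, then 10.53, 10.54, 10.17, 10.41 and 10.83, then 10.28, 10.28, 10.60, 10.63 and 10.45. Its difference of medians was -0.13, and the range of the high side spanned that of the low side.

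**Figure D3:**
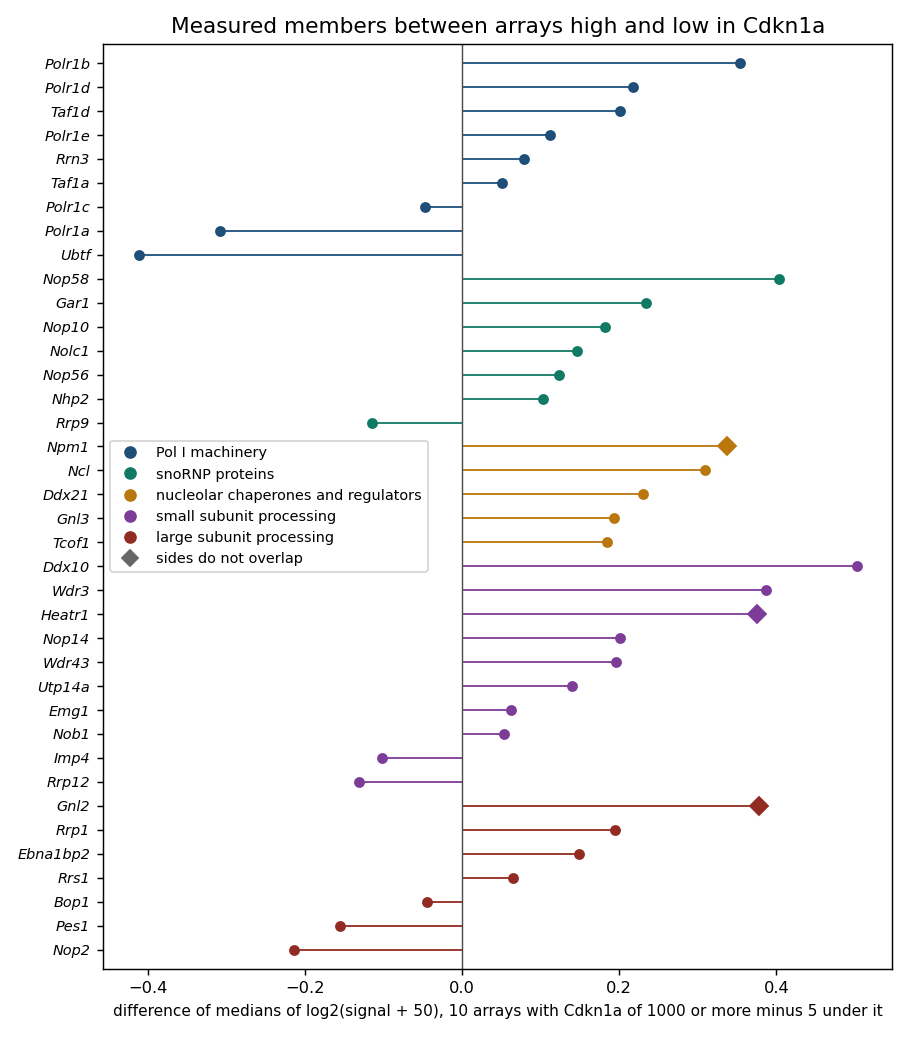
Difference of the median log2(signal + 50) between the 10 arrays with a Cdkn1a signal of 1000 or more and the 5 under it (x axis) for the 38 measured members (rows), coloured by role, with diamonds where the sides do not overlap. Of the members, 29 lie right of 0, and the differences run from -0.41 for Ubtf to 0.50 for Ddx10.

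The other members differed by -0.11 to 0.31. Ncl (nucleolin) had medians of 9.42 and 9.11, and its other probe ran the same way by 0.39. Gar1, of the box H/ACA particles, Ddx21, an RNA helicase of Pol I transcription and processing, Gnl3 (nucleostemin) and Tcof1 (treacle), which supports Pol I, differed by 0.23, 0.23, 0.19 and 0.18. Nop14, Wdr43 and Utp14a of the small subunit processome had 0.20, 0.20 and 0.14, Rrp1 and Ebna1bp2 of the large subunit 0.19 and 0.15, and Nop10 and Nolc1 of the snoRNPs 0.18 and 0.15. The rest lay closer to 0, from -0.11 for Rrp9 and -0.10 for Imp4, both of the U3 particle, through Bop1, Rrs1, the methyltransferase Emg1, the small subunit endonuclease Nob1 and Nhp2, to 0.12 for Nop56. Over the 19 members with another probe above noise, that probe differed in the same direction for 14.

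**Figure D4:**
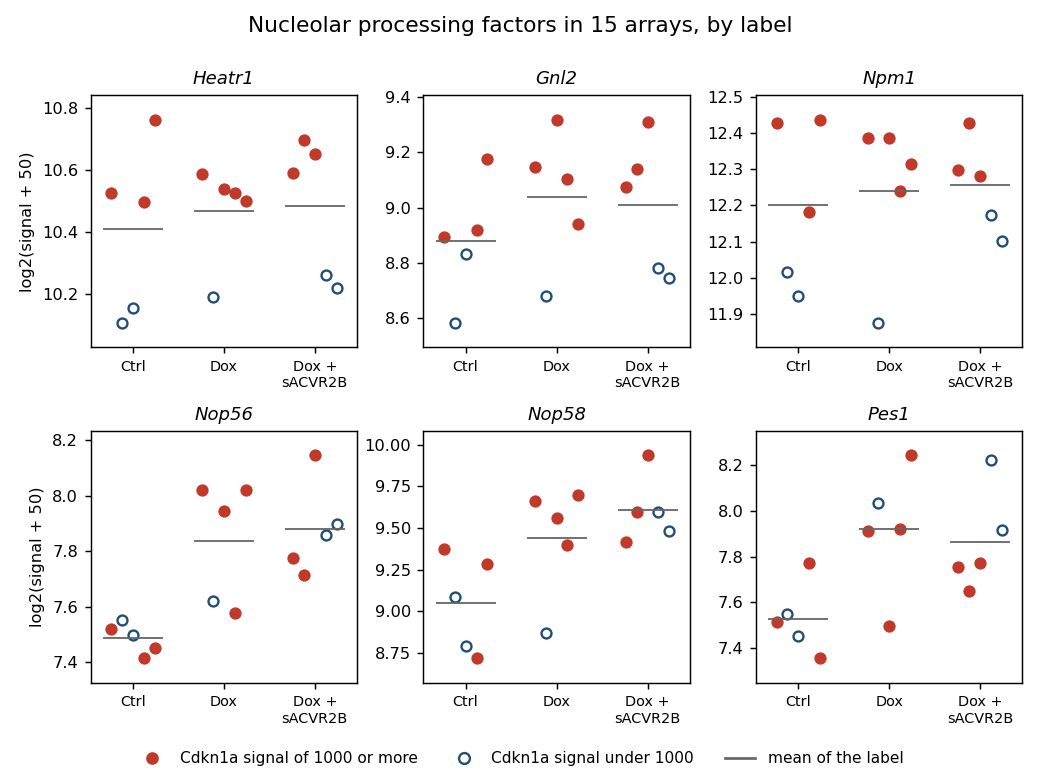
Log2(signal + 50) of 6 processing factors in each of 15 arrays (y axis, scaled per gene) by label (x axis), filled points for a Cdkn1a signal of 1000 or more, open points for less, lines for the mean of a label. In the upper row every filled point lies above every open one, whatever the label, while in the lower row Nop56 is higher in all 10 libraries labelled as given doxorubicin than in the 5 labelled Ctrl.

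A summary per array was made as the median, over the genes of a list, of each gene's deviation from its own mean over the 15 arrays. For the 29 measured processing members it lay between -0.02 and 0.11 in the 10 arrays of 1000 or more and between -0.18 and -0.05 in the 5 others, so the sides did not overlap. The lowest arrays were Ctrl 2 and Ctrl 3, at -0.18 and -0.17. By label the summary ran from -0.18 to 0.04 in Ctrl, -0.08 to 0.11 in Dox and -0.06 to 0.08 in Dox + sACVR2B, which all overlapped. For the 9 Pol I machinery genes the sides overlapped, from -0.08 to 0.08 and from -0.13 to 0.09.

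Other genes of the pathway, listed apart from the members, were described in the same way. Of 112 other ribosome processing genes 93 were measured, 68 of them with a higher median on the high side, and their median difference was 0.15. Their summary lay at 0.01 to 0.09 in the 10 arrays and -0.16 to -0.06 in the 5, again with no overlap. The widest were Rrp36 with 0.63 and Ddx27 with 0.60, both without overlap, and Rcl1 with -0.33 and Rrp1b with -0.29, which overlapped. Of 79 cytosolic ribosomal proteins 51 were measured, 28 of them higher, with a median difference of 0.01 and summaries of -0.09 to 0.09 and -0.08 to 0.09. Probes of ribosomal protein genes may also read their processed copies. None of these genes was called by label (0.0%).

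The other polymerase lists were mixed. Of the other Pol I and rDNA genes 10 of 15 measured were higher on the high side, with a median difference of 0.07. Top1, the topoisomerase that unwinds transcribed DNA, had 0.56 and Mybbp1a 0.27. The Pol I terminator Ttf1 had -0.35, but the mean signal of its probe over all arrays, 8.56, was below noise. No direction is therefore given for Ttf1. Of the RNA polymerase III machinery 12 of 20 were higher, with a median of 0.01, among them Polr3e with 0.47. Gtf3a with 0.29 and Crcp with 0.13 were higher without overlap, and Brf1, an initiation factor, was lower without overlap with -0.19. All 7 measured genes of the Myc network, 9 listed, had a higher median, by 0.01 for Mxd4 up to 0.48 for Mlxip, with a median of 0.13. Of all genes, 49.5% had a higher median. By label, 2 of the 7 had a log2 fold change above 0 for Dox over Ctrl. Myc, Mycn and Max themselves were below noise, so these values are no measure of Myc.

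**Figure D5:**
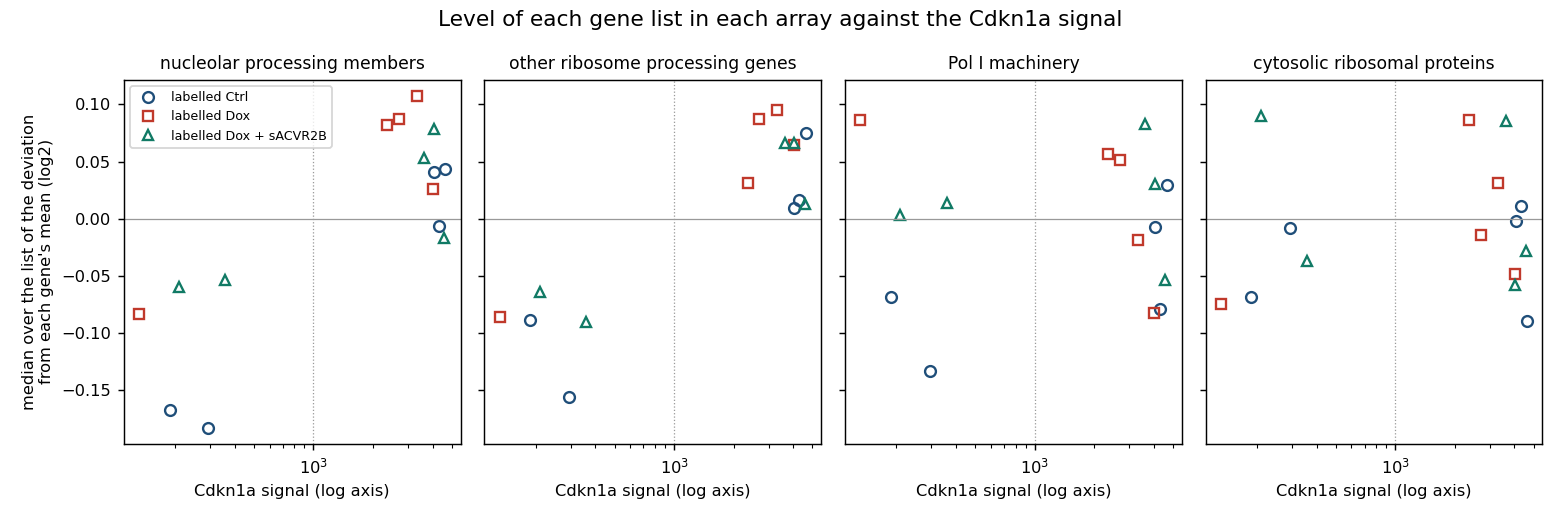
Median deviation of 4 gene lists from their mean levels (log2, y axis) in each of 15 arrays against the Cdkn1a signal (x axis, log scale), symbols for the label and a dotted line at 1000. The processing members and the other processing genes lie higher right of the line than left of it with no overlap, while the Pol I machinery and the ribosomal proteins overlap.

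Markers of other cell types had different medians between the same arrays, but the summed signals of the 2 sides overlapped for every measured list. All 5 fibroblast markers had a lower median on the high side, with summed signals of 17674 to 28954 against 26421 to 33519, and so did 4 of 4 macrophage markers (502.2 to 1493 against 643.6 to 1707), with Cd68 not measured. Of the endothelial markers 1 of 5 was higher (3893 to 6054 against 4331 to 6030), of the muscle markers 2 of 9 (176261 to 211857 against 175618 to 210466), of the satellite cell markers 1 of 3 with Pax7 and Myf5 not measured (737.0 to 1157 against 763.0 to 974.9), and of the erythroid markers 0 of 2 (3086 to 10260 against 5098 to 27820). Of 5 adipocyte markers only Adipoq was measured, with Plin1, Cfd, Fabp4 and Retn not. Its median was higher (147.6 to 749.7 against 44.8 to 1480), though its highest signal was on the low side. Of the proliferation markers only Mcm5 was measured, and none of the 5 lymphocyte markers. The part of these cells in the differences above was not tested. In whole muscle, fewer cells of a type and less RNA per cell cannot be told apart.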

How the data were processed

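The deposited values are probe intensities of Illumina mouse bead arrays, 15 arrays, on a linear scale, after background subtraction and quantile normalization by the authors. The probe annotation gives 34885 of 45281 probes 1 gene, 18 several and 10378 none, and RefSeq held the gene of 34852. Another deposited table of 30 non-normalized columns was not used here, since its column names match no sample label.

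Negative values (34.0% of all) gave a noise SD of 7.52. Probes above 1.645 noise SD (12.4) in at least 5 arrays were kept, 21307 probes of 11458 genes, and 19843 to 19890 probes per array were above noise. An offset of 50 was added before log2. Groups were compared with limma 3.58.1 in R 4.3.3, with 3 group means over all 15 arrays, two-sided, with Benjamini-Hochberg adjustment over kept probes, and a call needed an adjusted p under 0.05. A gene is its brightest kept probe. The fit was tested on simulated data. Nothing says whether the mice of a group were housed or processed together, and p-values measure the spread between these arrays. The number of arrays limits the precision.

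The members and lists were chosen with earlier results of these data known. Values in every array are given for Cdkn1a, the Pol I machinery, Myc and Max, the 3 members of smallest p per comparison, and the 5 members of widest difference with Cdkn1a in each direction. Of the related lists, up to 4 genes are named. Npm1, Ncl and other members outside this rule were chosen for mention with their values in view. Alternatives were other offsets, filters, fits, weights, priors, probes and normalization, the replicate number as a block, the 1.5-fold rule of the study's methods, and leaving out arrays. Plots were drawn with matplotlib 3.10.9.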

Additional observations from a re-analysis of the deposited data

Results flagged for a closer look

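In 5 of the 114 groups of 5 arrays that were looked at, 38 members in each of 3 labels, a single array stood far from the other 4 of its label. Chance alone gives such a value in about 1 group in 20. In 4 of the 5 it was the library labelled Dox 2, the only one of its label that is low in Cdkn1a. The other labels each held 2 such libraries. A difference between the Cdkn1a sides can therefore set a single array apart mainly in Dox. Ubtf stood high in Dox 2 at 8.51 on the log2 scale, where the next library labelled Dox had 8.12. Nolc1, a chaperone of the snoRNPs, stood low in Dox 2 at 5.73 (next 6.18), where its signal of 2.9 was below noise (12.4) and gives only a bound. Low in Dox 2 were also Npm1 at 11.87 (next 12.24) and Heatr1 at 10.19 (next 10.50). Ubtf stood high also in Dox + sACVR2B 5, another library low in Cdkn1a, at 8.63 (next 8.36).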

How the results depend on the processing

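The count of members called by label stayed at 0 under every alternative but one. Without the 6 libraries against their label it was 3 for Dox over Ctrl (Ubtf, Nop58 and Heatr1) and 2 for Dox + sACVR2B over Ctrl (Nop58 and Heatr1). Since label and Cdkn1a side coincide there, these calls compare the sides that a measured value set and are no test of the label. Members whose levels did not overlap between the Cdkn1a sides numbered 3 to 7 as each array was left out, and 7 only without Dox + sACVR2B 4, when Ubtf, Polr1b, Gar1 and Ddx10 joined the 3. With cyclic loess they were Ubtf, Heatr1 and Gnl2, and with the median over probes Ubtf, Npm1 and Heatr1. Rrn3 and Nop56 kept wholly higher levels in the 10 libraries labelled as given doxorubicin under every alternative run, chosen after seeing the data, and Nop58 joined them without Dox 2. Of the log2 fold changes of Dox over Ctrl, that of Polr1a, -0.051, became 0.058 with array weights, 0.24 with the median over probes, 0.037 with arrays of 1000 or more alone and -0.12 to 0.028 as each array was left out. That of Taf1a, -0.047, became 0.12 with the median over probes and 0.015 without the 6 libraries, and that of Taf1d, 0.066, became -0.031 with arrays of 1000 or more alone. Polr1c ran from -0.17 to 0.0005 as each array was left out. For Dox + sACVR2B over Ctrl, Nop14 went from -0.30 to 0.020 without the 6 libraries. For these turns the cause was not tested, except that Polr1a's probes disagree.

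Correlations of same-numbered pairs ran from -0.38 to 0.35, with 4 of 15 over 0.1, and 1 of 15 arrays correlated best with its own number. Such pairs can differ in Cdkn1a side, so these correlations cannot decide whether the replicate numbers pair the samples. With the replicate number as a block, 0 members were called in each comparison. Signal near noise limits what can be said of the 10 members that did not reach it, and of Gnl3, Utp14a, Nolc1 and Rrs1.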
